A study of Rattus norvegicus with 3 samples.

Results

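Described here are the genes of the matrix metalloproteases (MMPs), their tissue inhibitors (TIMPs), the ADAM and ADAMTS metalloproteases and the ADAMTS-like proteins in tendon stem/progenitor cells (TSPCs). They were found by gene name: a probe set, the group of short probes that reads 1 transcript on the array, was taken when its only gene symbol in the platform's table was a numbered *Mmp*, *Timp*, *Adamts*, *Adamtsl* or *Adam* symbol. In total, 77 probe sets for 53 genes were found, of 14217 genes that the array names. There were 17 *Mmp*, 4 *Timp*, 16 *Adamts* or *Adamtsl* and 16 *Adam* genes. Of these, 37 had 1 probe set and 16 had several.

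The cells were isolated from the Achilles tendon of rats (*Rattus norvegicus*) at 3 ages, 1 day (TSPCs-1d), 7 days (TSPCs-7d) and 56 days (TSPCs-56d) after birth. All 3 cultures were grown in low glucose DMEM with fetal bovine serum and were used at passage 2. Each culture pooled the tendons of at least 2 animals and came from many colonies grown at low density. The study names Sprague-Dawley rats as the source of its tendon tissue, and the sex of the animals is not given in the sources used here. RNA of each culture was hybridized to a single Affymetrix Rat Genome 230 2.0 array. With 1 array per age there was no replicate, so no difference below has a test or an error between cultures. All values are linear signals in intensity units. Ratios were taken between arrays for the same probe set and never between probe sets, which differ in brightness. Brightness across probe sets served to pick probe sets and named genes and to mark low signals. The 3 medians over all probe sets ranged from 107 to 114. A signal under 48.9, the 25th percentile of all signals, was treated as dim, and the median of all signals was 110.1. As a measure of how far probe sets of 1 gene disagree, 1719 genes with exactly 2 probe sets above that median were used. The log2 ratios of the 2 probe sets differed by 0.39 at the 90th percentile of these genes for the ratio of day 7 to day 1. For day 7 to day 56 this value was 0.44, and for day 56 to day 1 it was 0.53. As cultures were measured in bulk, fewer cells of a type and less RNA per cell cannot be told apart.

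The tendon label was checked by 7 measured marker genes. The tendon transcription factor gene *Scx* was bright at each age (2255, 2578 and 2569), as was the collagen gene *Col1a1*. *Tnmd*, a membrane protein of mature tenocytes, had 543, 351 and 158 in the order of age. The matrix genes of the list had other orders: *Thbs4* had 76.5, 340 and 348, *Fmod* had 271, 774 and 408, and *Tnc* had 5280.4, 7303 and 11185. *Thbs4* was thus 4.44-fold higher in TSPCs-7d and 4.55-fold higher in TSPCs-56d as compared to TSPCs-1d. *Comp*, a matrix protein of tendon and cartilage, was dim in TSPCs-1d and TSPCs-56d. Of 8 macrophage markers, *Ptprc*, *Itgam*, *Adgre1* and *Mrc1* were dim on all arrays. By the brightest probe set, *Aif1* (188 to 267), *Cd14* (155 to 162), *Cd68* (109 to 143) and *Csf1r* (76.6 to 78.8) were dim on none. The other *Aif1* probe set was dim on all arrays (7.47 to 9.35). Of 4 endothelial markers, *Pecam1* and *Vwf* were dim on all arrays. By the brightest probe set, *Kdr* (83.8 to 85.2) and *Tek* (67.4 to 80.4) were dim on none. The other *Kdr* probe set had 46.0, 42.7 and 62.5 in the order of age, above the dim level in TSPCs-56d alone. Of 5 markers of skeletal muscle, *Myod1* was dim on all arrays, *Des* on 2 and *Myog* on 1, while *Ckm* (102 to 127) and *Myh3* (84.2 to 112) were dim on none.

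MMPs are zinc proteases that cut collagens and other matrix proteins. They are made as inactive precursors, are activated by other proteases such as plasmin and furin, and are blocked by TIMPs. ADAMTS proteases are secreted and cleave proteoglycans or procollagens, whereas ADAMTS-like proteins share their binding domains and lack the protease. ADAMs are membrane proteins, of which some release growth factors, cytokines and receptors from the cell surface. In tendon, these enzymes take part in the growth, turnover and repair of the collagen matrix.

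Most of these genes stayed within 2-fold across the 3 ages, though a larger share passed it than of all genes. In total, 46 of 53 genes stayed within 2-fold in every comparison. The 7 genes past 2-fold (13.2%, against 6.49% of all genes) were *Mmp3*, *Mmp9*, *Mmp13*, *Timp3*, *Adamtsl1*, *Adamts19* and *Adam23*. Within 1.5-fold were 92.5% of the members in TSPCs-7d vs. TSPCs-1d, against 91.9% of all genes. The members were within 1.5-fold less often than all genes in TSPCs-7d vs. TSPCs-56d (75.5% against 89.6%). The same held in TSPCs-56d vs. TSPCs-1d (69.8% against 88.6%). In TSPCs-7d vs. TSPCs-1d, 2 genes (*Mmp3* and *Adamtsl1*) were more than 2-fold higher, where 1.87% of all genes were, and 1 gene (*Adam23*) was lower, where 1.08% of all genes were. In TSPCs-7d vs. TSPCs-56d, 2 genes (*Mmp13* and *Adamts19*) were higher, against 2.10% of all genes, and 1 gene (*Timp3*) was lower, against 1.72%. In TSPCs-56d vs. TSPCs-1d, 4 genes (*Mmp3*, *Mmp9*, *Timp3* and *Adamtsl1*) were higher, which is 7.55% of the members against 2.00% of all genes. In this comparison 2 genes (*Adamts19* and *Adam23*) were lower, against 1.77%. These comparisons share arrays, so a gene that stands apart on 1 array is counted in both comparisons of that array.

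**Figure D1:**
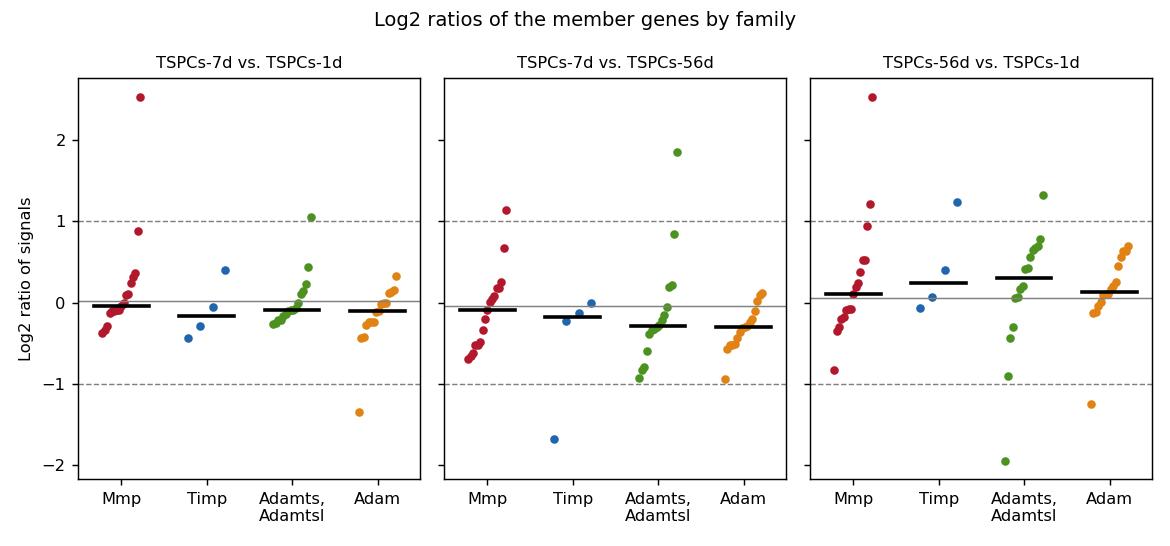
Log2 ratio of signals (vertical axis) of the 53 genes, 1 point per gene, by family in the 3 comparisons of arrays. Black bars are family medians, the grey line is the median of all genes and dashed lines mark 2-fold. Most points lie between the dashed lines, and Mmp3 stands highest in both comparisons with TSPCs-1d.

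*Mmp3* encodes stromelysin, a secreted protease that cuts proteoglycans, fibronectin and several collagens and activates other MMP precursors. It read 332 in TSPCs-1d, against 1930.1 in TSPCs-7d and 1926 in TSPCs-56d. Thus both older cultures were bright and stood at the same level, and the youngest was lower. The ratios over TSPCs-1d were 5.81 for TSPCs-7d and 5.80 for TSPCs-56d. Of all 14217 genes, 3 had a higher ratio in TSPCs-7d vs. TSPCs-1d and 33 in TSPCs-56d vs. TSPCs-1d. The gene has 1 probe set, so no second reading was at hand. The related stromelysin gene *Mmp10* was faint, with 40.6, 48.0 and 77.8 in the order of age. Only TSPCs-56d was above the dim level, at least 1.59-fold higher than both others. *Mmp11*, a stromelysin of tissue remodelling that hardly cuts matrix proteins, stayed between 258 and 272. The matrilysin gene *Mmp7*, made mostly by epithelial cells, was dim on all arrays (23.1 to 32.2).

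**Figure D2:**
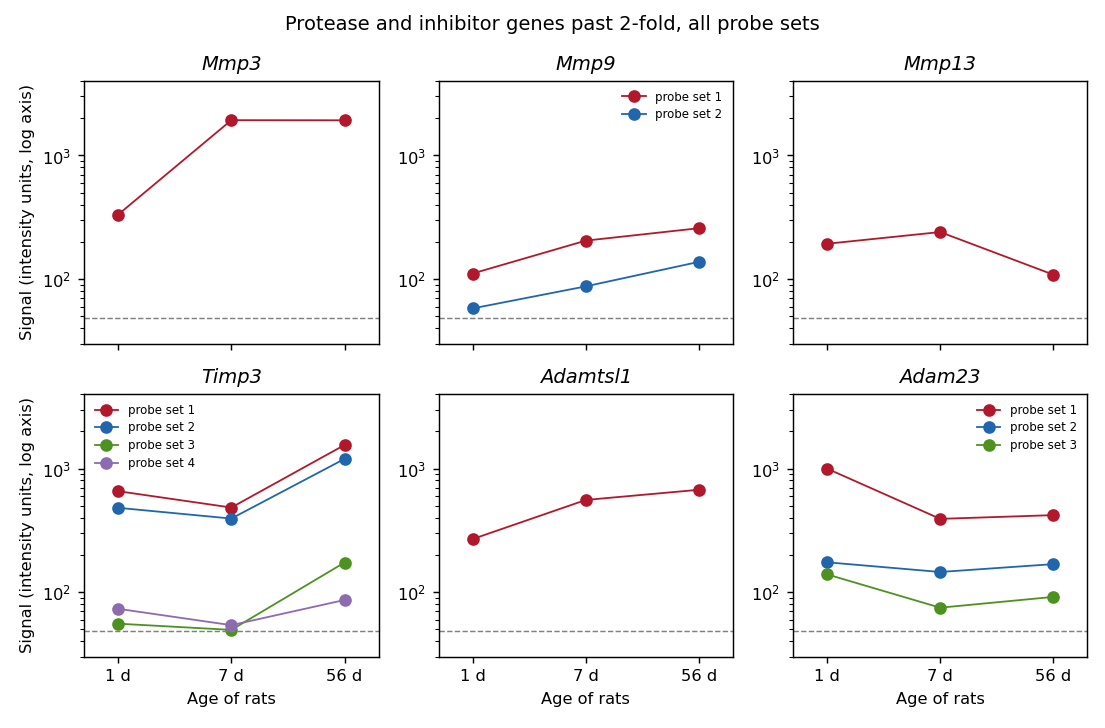
Signal (intensity units, log axis) against the age of the rats for 6 genes that were more than 2-fold apart between 2 ages, with 1 line for each probe set and 1 array per age. The dashed line marks the dim level of 48.9. Mmp3 and Adamtsl1 were higher at 7 d and 56 d. All 4 probe sets of Timp3 were highest at 56 d, and Adam23 was highest at 1 d.

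*Mmp3*, *Mmp10* and *Mmp7* lie in 1 cluster of MMP genes on rat chromosome 8. By gene order in RefSeq (assembly GRCr8), 10 *Mmp* genes follow each other there from *Mmp13* to *Mmp7*, of which 6 have a probe set here, namely *Mmp13*, *Mmp12*, *Mmp3*, *Mmp10*, *Mmp8* and *Mmp7*. The other 4 were not analysed here. Genes of this cluster are known to respond to AP-1, the Fos and Jun factors that growth factors, cytokines and stress induce. Their promoters are shown because 5 of the 6 hold the AP-1 letters at a similar place, while *Mmp3*, *Mmp13* and *Mmp10* differed in age pattern. The other genes with the letters, *Mmp12* and *Mmp7*, were dim on all arrays. The letters searched were TGAGTCA, which read TGACTCA on the other strand, so that both strands were covered. Each stretch below holds the letters in capitals, with 30 bases before and 50 after, 5′ to 3′ on the plus strand of GRCr8, from RefSeq. They lie at chr8:12782733-12782819 (*Mmp13*), chr8:12866535-12866621 (*Mmp12*), chr8:12925180-12925266 (*Mmp3*), chr8:12974616-12974702 (*Mmp10*) and chr8:13132933-13133019 (*Mmp7*).
Mmp13: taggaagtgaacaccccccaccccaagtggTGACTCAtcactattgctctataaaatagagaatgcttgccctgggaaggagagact
Mmp12: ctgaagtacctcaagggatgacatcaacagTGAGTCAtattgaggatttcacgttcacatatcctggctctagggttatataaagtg
Mmp3: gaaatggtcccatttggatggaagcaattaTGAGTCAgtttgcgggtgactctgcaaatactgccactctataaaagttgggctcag
Mmp10: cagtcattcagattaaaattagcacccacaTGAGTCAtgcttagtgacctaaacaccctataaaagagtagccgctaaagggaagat
Mmp7: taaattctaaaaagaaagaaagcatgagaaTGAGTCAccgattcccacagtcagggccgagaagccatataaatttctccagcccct

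The letters begin 66 (*Mmp13*), 87 (*Mmp12*), 71 (*Mmp3*), 61 (*Mmp10*) and 80 (*Mmp7*) bases before the start site of the window. In *Mmp8* they were not in the window of 300 bases. A promoter window was at hand for 33 of the 53 genes, in 36 windows since *Adamtsl1* has 4. Outside the cluster, *Adam19* was the only other gene whose window held the letters, so that 6 of 36 windows did (16.7%), against 4.63% of all 33469 windows in the table. A match of letters is a description and shows neither binding nor use of the site in these cells.

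The genes of the cluster that hold these letters did not share 1 age pattern. *Mmp3* was higher in TSPCs-7d and TSPCs-56d, whereas *Mmp13* was lowest in TSPCs-56d. *Mmp10* exceeded the dim level in TSPCs-56d alone. The macrophage elastase gene *Mmp12* was dim on all arrays (34.2 to 42.0), like *Mmp7*, and for dim signals no order of the ages can be read. *Mmp8*, the collagenase of neutrophils, stayed between 50.9 and 58.5, just above the dim level.

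**Figure D3:**
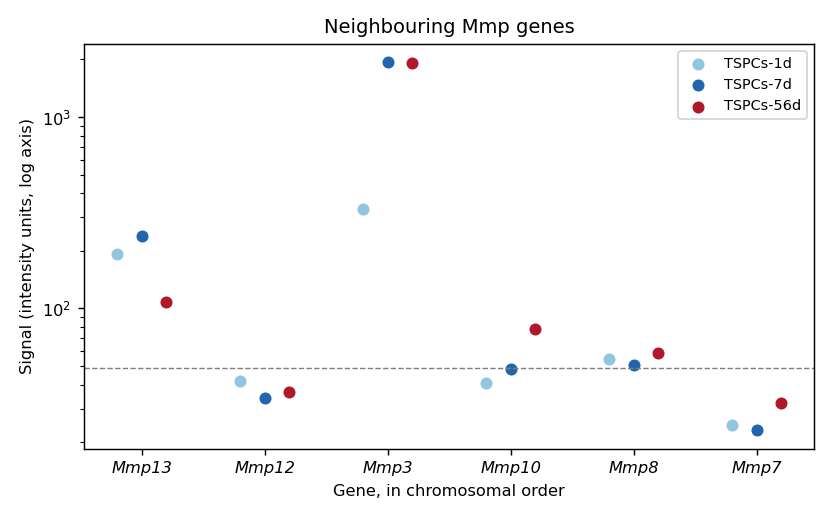
Signal (intensity units, log axis) of 6 neighbouring Mmp genes in chromosomal order, 1 point per array, with the dim level of 48.9 as a dashed line. Mmp3 is higher in TSPCs-7d and TSPCs-56d than in TSPCs-1d, Mmp13 is lowest in TSPCs-56d, and Mmp12 and Mmp7 lie below the dashed line on all arrays.

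Collagenases make the first cut in the triple helix of fibrillar collagen, and *Mmp13* is the main interstitial collagenase of rodents. Its signals were 193, 240.3 and 109 in the order of age, highest at 7 days. TSPCs-7d exceeded TSPCs-56d by 2.21-fold, and TSPCs-56d lay 1.78-fold below TSPCs-1d. With a pseudocount of 32, the first of these ratios fell under 2-fold. In TSPCs-7d vs. TSPCs-56d, 215 of all genes had a higher ratio.

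The gelatinases *Mmp2* and *Mmp9* cut denatured collagen and the collagen of basement membranes. *Mmp9* was highest in TSPCs-56d in both of its probe sets. The brighter probe set had signals of 111, 205 and 258 in the order of age, and the fainter had 57.9, 87.4 and 138. TSPCs-56d was 2.33-fold and 2.38-fold higher than TSPCs-1d in these probe sets, and TSPCs-7d was 1.85-fold and 1.51-fold higher. Leukocytes are a known source of *Mmp9*, so the list of 8 macrophage markers is given beside it. *Ptprc* and 3 others were dim on all arrays. The brighter *Aif1* probe set (209, 188 and 267) and *Cd68* (122, 109 and 143) were not dim and were highest in TSPCs-56d, like *Mmp9*. The other *Aif1* probe set was dim on all arrays (9.35, 7.47 and 8.85). *Cd14* (162, 157 and 155) was highest in TSPCs-1d, and *Csf1r* (76.9, 76.6 and 78.8) was nearly level. The part of these markers in the *Mmp9* signal was not tested. *Mmp2*, made widely by fibroblasts, was bright, with 5150, 3976 and 6100 in the order of age. TSPCs-7d was lowest, 1.30-fold under TSPCs-1d and 1.53-fold under TSPCs-56d, neither past the 2-fold cutoff. A second *Mmp2* probe set was faint (42.8 to 76.5) and did not show the dip at 7 days.

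Membrane-type MMPs stay on the cell surface, where *Mmp14* activates the precursor of MMP2 and cuts collagen around the cell. *Mmp14* was bright and nearly level, with 4647, 4327 and 4101 in the order of age. Its second probe set stayed between 860.3 and 954. Of the 5 membrane-type genes measured, 0 passed 2-fold in any comparison, where 6.49% of all genes did in 1 or more. *Mmp16* was highest in TSPCs-7d (194, 251 and 157), 1.59-fold above TSPCs-56d. *Mmp17* and *Mmp24* were lowest in TSPCs-7d, with 155, 141 and 223 for *Mmp17* and 502, 398 and 571 for *Mmp24*. *Mmp15* was near the dim level (46.2 to 58.9). Among the remaining MMPs, *Mmp19* had signals of 260.1, 259 and 373 so that TSPCs-56d was 1.43-fold above TSPCs-1d. *Mmp23*, an MMP without the usual haemopexin domain, differed by at most 1.21-fold in each of its 3 probe sets. *Mmp28* stayed between 88.8 and 101.

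The inhibitors differed from each other in their order of ages. TIMP3 binds to the matrix and blocks MMPs, ADAM17 and the aggrecanases, and its gene was highest in TSPCs-56d. The brightest probe set of *Timp3* had 656, 483 and 1550.4 in the order of age. The second had 481, 394 and 1196. The third had 55.6, 49.5 and 174, near the dim level of 48.9 in both younger cultures. In these 3 probe sets, TSPCs-56d was higher than TSPCs-7d by 3.21-fold, 3.04-fold and 3.51-fold and higher than TSPCs-1d by 2.36-fold, 2.49-fold and 3.12-fold. The fourth was faint (73.4, 54.1 and 86.4) and had ratios of 1.60 and 1.18 in the same directions. Of all genes, 73 had a lower ratio than *Timp3* in TSPCs-7d vs. TSPCs-56d. *Timp1*, which is induced by growth factors and cytokines, had 6564, 8646 and 8658, so that both older cultures were 1.32-fold above TSPCs-1d. *Timp2*, which also helps MMP14 to activate MMP2, was bright throughout, with 11727, 9597 and 11201. Its 2 probe sets both had TSPCs-7d lowest, 1.22-fold and 1.24-fold under TSPCs-1d. *Timp4*, the inhibitor of heart and brain, was dim on all arrays.

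Set beside each other, *Mmp3* and *Timp3* reached their higher level at different ages. *Mmp3* was already as high in TSPCs-7d as in TSPCs-56d. *Timp3* was 1.36-fold lower in TSPCs-7d than in TSPCs-1d, within the 2-fold cutoff, and was high in TSPCs-56d alone. *Mmp13* had the opposite order to *Timp3*, being highest in TSPCs-7d and lowest in TSPCs-56d.

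**Figure D4:**
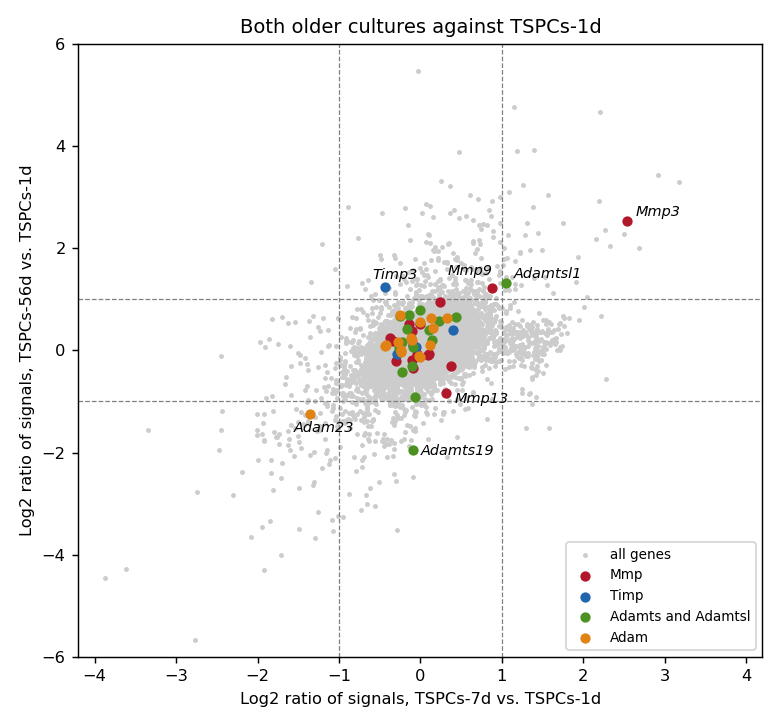
Each point is a gene, placed by its log2 signal ratio to TSPCs-1d at 7 d (horizontal axis) and at 56 d (vertical axis). The 4 families are coloured, the remaining genes are grey and dashed lines mark 2-fold. Both axes share the TSPCs-1d array. Mmp3 and Adamtsl1 lie above 2-fold on both axes, Adam23 lies below it on both, and Timp3 and Mmp9 lie above it on the vertical axis alone.

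The ADAMTS proteases that cleave aggrecan and versican, the large proteoglycans of cartilage, tendon and blood vessels, mostly had their highest signal in TSPCs-56d. Of 6 measured, 5 were highest there, where 44.2% of all genes were. Of these 6, 0 passed 2-fold, where 6.49% of all genes did in 1 or more comparisons. *Adamts1* had 2972, 2956 and 5132, so that TSPCs-56d was 1.73-fold above TSPCs-1d and 1.74-fold above TSPCs-7d. The aggrecanase gene *Adamts4* had 138, 116 and 221, with TSPCs-56d 1.60-fold and 1.90-fold higher. *Adamts5*, the other main aggrecanase, had 280.3, 249 and 376 in its brighter and 174, 192 and 257 in its fainter probe set. *Adamts8* (76.9, 69.6 and 124) and *Adamts15* (70.7, 95.7 and 111) were faint with the same array highest. *Adamts9* went the other way. Its brighter probe set had 246, 236 and 131, so that TSPCs-56d was 1.88-fold under TSPCs-1d, a ratio that passed 2-fold once arrays were scaled to equal medians. The fainter probe set of *Adamts9* had 82.3, 52.2 and 51.3, with TSPCs-7d already low. The median log2 ratio of the 6 genes in TSPCs-56d vs. TSPCs-1d was 0.66, beside 0.06 over all genes.

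The gene of the substrate aggrecan, *Acan*, had 8588, 8224 and 2874 in the order of age, and was 2.99-fold lower in TSPCs-56d than in TSPCs-1d. Its other probe set had 6283, 6121 and 1639. Versican, *Vcan*, was highest in TSPCs-56d, with 1071, 1478 and 1967. Both proteoglycans of nervous tissue on the list, *Bcan* and *Ncan*, were faint or dim. Thus aggrecan was lowest on the array on which 5 of the 6 proteases were highest, while versican was highest on it. Of the cartilage markers measured beside *Acan*, *Col2a1* lay between 37.9 and 72.4 over its 3 probe sets, *Col9a1* was dim on all arrays and *Matn1* had 118, 114 and 124. Their part in the *Acan* signal was not tested. These are RNA levels, and no cleavage of either protein was measured.

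**Figure D5:**
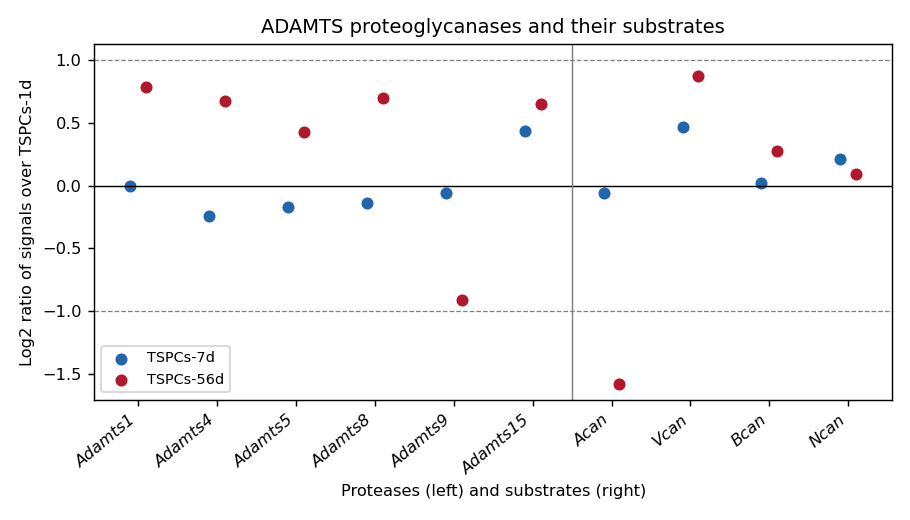
Log2 ratio of signals over TSPCs-1d (vertical axis) of 6 ADAMTS proteoglycanase genes (left) and 4 genes of their substrates (right), 1 point each for TSPCs-7d and TSPCs-56d, with dashed lines at 2-fold. In TSPCs-56d, 5 proteases lie above 0 and within 2-fold, Adamts9 lies at -0.91 and Acan below -1.

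Of the ADAMTS-like genes, whose proteins bind to microfibrils and other matrix and do not cut it, *Adamtsl1* was past the cutoff. It had 269, 557 and 673 in the order of age, higher in both older cultures. TSPCs-7d was 2.07-fold and TSPCs-56d 2.51-fold above TSPCs-1d. With a pseudocount of 32, the first of these ratios fell under 2-fold. *Adamtsl2*, linked to microfibrils and TGF-beta, had 172, 201 and 254. *Adamtsl4*, which binds fibrillin, had 754, 647 and 849.9 and was lowest in TSPCs-7d. *Adamtsl5* was within 1.25-fold in both probe sets.

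Among the other ADAMTS genes, *Adamts12* (943, 1038 and 1082) and *Adamts7* (456, 489 and 605), a related pair whose proteins cleave the cartilage matrix protein COMP, were highest in TSPCs-56d without passing 2-fold. *Adamts10*, a protease that binds microfibrils, was level (302, 283 and 315). *Adamts19* had 59.6, 55.8 and 15.4, with TSPCs-56d dim. Both calls of this gene past 2-fold rest on that dim signal. With it raised to the dim level, TSPCs-1d was at least 1.22-fold and TSPCs-7d at least 1.14-fold higher than TSPCs-56d. *Adamts6* (59.5 to 73.2) and *Adamts16* (37.6 to 50.7) were faint. The procollagen proteinases *Adamts2*, *Adamts3* and *Adamts14*, which trim fibrillar procollagens, were not analysed here.

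*Adam23* encodes an ADAM without protease activity that binds integrins and is best known from neurons. The brightest probe set had 999, 391 and 420 in the order of age, so that the youngest culture was high and both others low. TSPCs-7d was 2.55-fold and TSPCs-56d 2.38-fold lower than TSPCs-1d. The probe sets did not move by the same amount. The second had 174, 146 and 169, within 1.20-fold, and the third had 139, 74.9 and 91.6, with TSPCs-1d 1.86-fold above TSPCs-7d. All 3 had TSPCs-1d highest. With the mean over its probe sets, *Adam23* was no longer past 2-fold, with log2 ratios of -0.84 (TSPCs-7d vs. TSPCs-1d) and -0.64 (TSPCs-56d vs. TSPCs-1d). The related *Adam22* was faint in its brightest probe set (63.0 to 74.7). Another of its probe sets was dim in both younger cultures and had 81.9 in TSPCs-56d, at least 1.68-fold higher.

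Of the ADAMs that release membrane proteins, 0 of 7 measured passed 2-fold, where 6.49% of all genes did in 1 or more comparisons. In TSPCs-7d, 5 of 7 were lowest, as were 32.6% of all genes. *Adam17*, which frees tumour necrosis factor and ligands of the EGF receptor, was level with 1060.0, 1155 and 1142. *Adam10*, a sheddase of Notch and cadherins, had 264, 196 and 282, whereas its fainter probe set had 80.7, 66.0 and 64.7. *Adam19*, a sheddase of neuregulin, had 4 probe sets, and in each TSPCs-7d was lowest. The brightest had 4655, 3481 and 5021, and the second had 3227, 2535 and 4071. TSPCs-7d was under TSPCs-56d by 1.26-fold to 1.61-fold in these 4. *Adam15* had 376, 311 and 420. *Adam33* had 155, 131 and 252 and was 1.92-fold lower in TSPCs-7d than in TSPCs-56d. *Adam9* (53.9 to 63.6) and *Adam8* (66.3 to 90.4) were faint.

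Among 8 genes of ligands that ADAMs release, 1 passed the cutoff in its brightest probe set, where 6.49% of all genes did in 1 or more comparisons. *Areg*, which encodes amphiregulin, a ligand of the EGF receptor, had 236, 95.0 and 59.1 and was 2.48-fold lower in TSPCs-7d and 3.99-fold lower in TSPCs-56d than in TSPCs-1d. *Hbegf* (1956, 1438 and 1465) and *Tgfa* (1013, 1270.2 and 1321) stayed within 2-fold. The probe sets of the neuregulin gene *Nrg1* differed. The brightest had 609, 686 and 420, within 2-fold, whereas the next had 584.7, 805 and 273.9, so that TSPCs-56d was 2.94-fold below TSPCs-7d and 2.13-fold below TSPCs-1d. Of 6 partner genes of ADAM17 and ADAM10, the rhomboid-like and tetraspanin genes that guide both to the cell surface, 0 passed 2-fold, against the same 6.49%. *Tspan15* differed most from TSPCs-1d, with 208, 251 and 318.

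The genes that activate or restrain MMPs from outside the families also stayed within the cutoff. Of 15 measured, 0 were more than 2-fold higher or lower in any comparison, where 6.49% of all genes were in 1 or more. The activators of plasminogen, *Plau* (323, 237 and 319) and *Plat* (2103, 2542 and 1849), had TSPCs-7d at opposite ends. The MMP inducer gene *Bsg* had 5086, 3860 and 4519, and *Furin*, which activates membrane-type MMPs, had 290.4, 330 and 359. *Reck*, a membrane-bound inhibitor of MMPs, was highest in TSPCs-56d with 1110.0, 1179 and 1748, 1.58-fold above TSPCs-1d. *Lrp1*, a receptor that clears MMPs and their inhibitors, had 1708, 1885 and 2231. *A2m*, which encodes a protease trap, was faint, with 87.8, 49.9 and 91.3.

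Most ratios stayed within 2-fold, but the order of the 3 arrays can still be counted. In total, 27 of 53 genes (50.9%) were lowest in TSPCs-7d, as were 32.6% of all genes. By family, they were 7 of 17 *Mmp*, 3 of 4 *Timp*, 7 of 16 *Adamts* or *Adamtsl* and 10 of 16 *Adam* genes. They include *Mmp7*, *Mmp12*, *Timp4* and *Adam2*, dim on all arrays, and *Adam11*, dim in TSPCs-1d and TSPCs-7d. For these genes the order cannot be read. Of the 31 members with a mean signal above the median, 17 (54.8%) were lowest in TSPCs-7d, as were 29.8% of all genes at such signals. In contrast, 6 of 53 were highest in TSPCs-7d (11.3%, against 28.3% of all genes) and 34 in TSPCs-56d (64.2%, against 44.2%). The 34 also hold genes that were dim on all arrays. The differences are small: the median log2 ratio of the members in TSPCs-7d vs. TSPCs-56d was -0.27, beside -0.05 over all genes, and in TSPCs-7d vs. TSPCs-1d it was -0.10, beside 0.01. These counts rest on single arrays, those of the lowest and highest in TSPCs-7d on the TSPCs-7d array and that of the highest in TSPCs-56d on the TSPCs-56d array. How much of them comes from the arrays was not tested. Genes of 1 family are not independent readings.

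The remaining ADAMs were faint or dim. *Adam2*, *Adam6* and *Adam32*, which are among the ADAMs known mainly from the testis, were dim on all arrays (17.9 to 44.0). *Adam7*, *Adam11*, *Adam18* and *Adam4* lay between 48.3 and 91.3. In all, 6 of the 53 genes were dim on all 3 arrays, 6 on 1 or 2 arrays and 41 on none.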

How the data were processed

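Total RNA of TSPCs at 3 ages was hybridized to 3 arrays, 1 per age, and groups were taken from the sample titles. The deposited values are intensity signals on a linear scale, for 31042 probe sets. Per the methods, the authors normalized and summarized the scans with MAS5 and with RMA, whereas the submitters' processing notes name MAS5 alone. Which of these gave the values, and hence how dim signals were treated, is not stated. The raw scans and detection calls were not analysed here.

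No filter or further scaling was applied. A fold change was the ratio of 2 signals, with a cutoff of 2 as in the methods, and no test was possible. The number of arrays limits the precision. A dim signal was raised to 48.9 wherever a fold is given as "at least". Of all probe sets, 20826 have a single symbol, 436 several and 9780 none in the platform's table. All 53 members kept their symbol in RefSeq GRCr8, which was used for names, gene order and promoters. In counts, each gene was read from its brightest probe set by mean signal.

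The members, gene lists and tests were chosen with earlier results of these data known. The rule for named genes took members past 2-fold with a signal above 110.1, the 6 brightest of each family, all TIMPs and genes whose probe sets moved past 2-fold in opposite directions (24 genes). Other members are named through lists of their roles. Alternatives were scaling by the array median, quantile normalization and loess centring of span 0.2; raising low signals to the 25th percentile or the median, or a pseudocount of 32; genes above the median of mean signal; the mean over probe sets; no shared probe sets; and cutoffs of 1.5 and 3. The calculation was tested on simulated data. Python 3.11.15, numpy 2.4.6, pandas 2.3.3, statsmodels 0.14.6 and matplotlib 3.10.9 were used.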

Additional observations from a re-analysis of the deposited data

How the results depend on the processing

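No paired analysis was possible because each age has 1 array, and for the same reason no array could be left out. Scaling by the array median, quantile normalization, loess centring and leaving out shared probe sets kept every count past 2-fold within 1.5 times its value. With a pseudocount of 32, 1 gene was higher and 1 lower in TSPCs-7d vs. TSPCs-1d, where 1.4% and 0.703% of all genes were. There were 0 higher in TSPCs-7d vs. TSPCs-56d, against 1.41%, and 1 lower in TSPCs-56d vs. TSPCs-1d, against 1.17%. *Adamts19* dropped out with signals under the 25th percentile or under the median raised to it, and among genes above the median of mean signal. This left 1 gene higher in TSPCs-7d vs. TSPCs-56d and 1 lower in TSPCs-56d vs. TSPCs-1d. Under these settings in turn, 1.71%, 1.46% and 2.42% of all genes were higher in the first comparison. In the second, 1.37%, 0.978% and 1.67% were lower. The mean over probe sets left 0 genes lower in TSPCs-7d vs. TSPCs-1d and 1 in TSPCs-56d vs. TSPCs-1d, since *Adam23* dropped out. Of all genes, 0.921% and 1.53% were lower in these comparisons. At a 1.5-fold cutoff there were 4 genes higher and 9 lower in TSPCs-7d vs. TSPCs-56d, where 4.99% and 5.44% of all genes were, and 12 higher and 4 lower in TSPCs-56d vs. TSPCs-1d, where 7.08% and 4.29% of all genes were. At a 3-fold cutoff, 1 gene (*Mmp3*) was higher and 0 lower in TSPCs-7d vs. TSPCs-1d, where 0.302% and 0.387% of all genes were. In TSPCs-7d vs. TSPCs-56d, 1 was higher (*Adamts19*) and 1 lower (*Timp3*), against 0.45% and 0.647%. In TSPCs-56d vs. TSPCs-1d, 1 was higher (*Mmp3*) and 1 lower (*Adamts19*), against 0.823% and 0.724%. Both calls of *Adamts19* rest on its dim signal in TSPCs-56d. The number of members lowest in TSPCs-7d was a count added after seeing the data. It was 27 with scaling by the array median, where 28.3% of all genes were lowest. With quantile normalization and loess centring it was 26, against 32% and 30.9% of all genes. It was 22 with signals under the 25th percentile raised to it (26.8% of all genes). With those under the median raised to it, 17 were lowest (19.5% of all genes). Above the median of mean signal, 17 of 31 were, against 29.7% of all such genes. For the named genes, 640 recomputed log2 ratios moved by less than the difference between probe set pairs at its 90th percentile and 2 moved by more, both of *Adam23* with the mean over its probe sets. No ratio past 2-fold turned its direction. Dim signals limit 12 of the 53 genes.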
